A study of Mus musculus with 50 samples.

Results

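Expression of 10 genes of the NF-kB pathway was followed across 38 RNA-seq libraries of mouse kidney, liver and skin fibroblasts. The genes were chosen by name, and all 10 were found among the 24984 genes of the count files. They comprise the cytokines Tnf and Il1b, the transcription factor subunits Nfkb1, Nfkb2 and Relb, the inhibitors Nfkbia and Nfkbie, the ubiquitin enzymes Tnfaip3 and Birc3, and the adhesion molecule Icam1. All mice were of the C57BL/6 strain, and the labels name no transgene or altered allele. Untreated young mice were 2.5 months old and untreated old mice 23 to 25 months, with 4 kidney and 4 liver libraries at each age. A second series held kidney and liver from mice whose age was 20 to 21 months, given DMSO or a treatment called 3C (4 libraries in each of the 4 groups) and skin fibroblasts, labelled P9, given DMSO or 3C (3 libraries each). What 3C and P9 stand for is not given in the sources used here. ATAC-seq, which maps chromatin open to the Tn5 transposase, covered kidney and liver of the untreated young and old mice with 3 libraries in each of 4 groups. The labels number the libraries but do not say how many mice or cultures they came from, so p values measure the spread between these libraries.

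NF-kB is a family of dimeric transcription factors that rest in the cytoplasm, bound to inhibitors of the IkB family. Signals such as TNF and IL-1 switch on the IkB kinase, the inhibitors are degraded, and dimers built around p50 (from Nfkb1) enter the nucleus. In a slower branch that runs through the kinase NIK, p100 (from Nfkb2) is cut to p52, which pairs with RelB. Many targets of NF-kB restrain it in turn: Nfkbia and Nfkbie encode fresh inhibitors, and Tnfaip3 encodes A20, an enzyme that edits ubiquitin chains on the receptor complexes. In kidney and liver these genes are used by resident macrophages and other immune cells as well as by epithelium and endothelium. In whole tissue, a larger number of cells that use a gene and more RNA per cell cannot be told apart.

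Between 14.2 and 43.7 M (1 M is 1e6) reads per library were counted in genes, and levels are given as CPM, the reads of a gene per 1e6 reads counted in genes. Kidney tubule markers summed to 19616 CPM or more in every kidney library, hepatocyte markers to 78986 CPM or more in every liver library and fibroblast markers to 17434 CPM or more in every fibroblast library. Some libraries stood apart from the others of their group. In old kidney replicate 2 the hepatocyte markers summed to 4587 CPM, against 503 to 606 CPM in the other old kidneys. In 3C liver replicate 4 the tubule markers summed to 24.6 CPM, against at most 5.08 CPM in the other 3C livers. In DMSO kidney the B and plasma cell markers summed to 414 CPM in replicate 3, against at most 133 CPM in the others, and the immediate early genes to 690 CPM in replicate 1, against at most 344 CPM. Results that turn on these libraries are also given without them. Untreated libraries carry tallies of reads that aligned to several places and the DMSO and 3C libraries carry none, so the series were handled differently and were not tested against each other.

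To show where the factor that these genes encode and answer to could bind, promoter sequence was taken from a RefSeq table (GRCm38.p6, from 250 bases before to 50 bases after each start site). Of the 10 genes, 8 had entries there, with 11 promoters, while Nfkb1 and Relb were not among them. Both strands were searched for the kappa-B consensus, the 10-base element that NF-kB dimers recognise. It was present in 6 of the 11 promoters and in 4 of the 8 genes, against 4.51% of all 32851 promoters and 5.14% of genes. The looser pattern GGGNNNNNCC, which contains the consensus, was present in 10 of the 11 promoters, but also in 50.8% of all promoters. The 4 genes with the consensus were Nfkb2, Nfkbia, Nfkbie and Tnfaip3, which make a precursor subunit, the 2 inhibitors and A20. Nfkb2 has 3 promoters in the table, all with the consensus, and Tnfaip3 has 2, of which 1 has none. The most upstream promoter of each gene is shown, with the consensus in capitals and the rest in lower case, each read 5′ to 3′ on the strand of its gene. They lie, in the same order, at chr19:46304487-46304786 (plus strand), chr12:55492598-55492897 (minus strand), chr17:45555450-45555749 (plus strand) and chr10:19015361-19015660 (minus strand).
Nfkb2: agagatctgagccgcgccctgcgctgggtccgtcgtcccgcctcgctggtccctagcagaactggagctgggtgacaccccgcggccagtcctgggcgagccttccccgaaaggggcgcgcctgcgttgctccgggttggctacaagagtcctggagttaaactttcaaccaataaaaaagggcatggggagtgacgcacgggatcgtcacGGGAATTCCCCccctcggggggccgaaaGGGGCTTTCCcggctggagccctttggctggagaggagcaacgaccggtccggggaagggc
Nfkbia: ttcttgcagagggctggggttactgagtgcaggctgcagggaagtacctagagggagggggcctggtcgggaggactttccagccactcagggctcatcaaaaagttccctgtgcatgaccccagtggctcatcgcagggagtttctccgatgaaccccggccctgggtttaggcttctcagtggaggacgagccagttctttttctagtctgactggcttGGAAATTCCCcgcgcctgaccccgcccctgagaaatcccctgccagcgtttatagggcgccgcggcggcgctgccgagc
Nfkbie: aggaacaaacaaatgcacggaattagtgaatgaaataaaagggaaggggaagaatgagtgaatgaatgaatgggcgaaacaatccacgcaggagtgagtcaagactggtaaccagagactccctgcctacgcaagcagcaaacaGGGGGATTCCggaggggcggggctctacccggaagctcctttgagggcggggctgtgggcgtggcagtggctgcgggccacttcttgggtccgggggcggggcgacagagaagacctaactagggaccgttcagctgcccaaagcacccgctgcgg
Tnfaip3: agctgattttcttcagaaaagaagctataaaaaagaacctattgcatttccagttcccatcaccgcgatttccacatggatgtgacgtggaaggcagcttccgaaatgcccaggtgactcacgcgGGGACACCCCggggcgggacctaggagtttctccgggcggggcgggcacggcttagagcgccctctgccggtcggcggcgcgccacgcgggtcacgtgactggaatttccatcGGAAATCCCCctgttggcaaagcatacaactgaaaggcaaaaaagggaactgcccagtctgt

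In the Nfkb2 promoter shown, sites at 39 to 30 and 38 to 29 bases before the start overlap each other, and a further site lies at 11 to 2 bases before it. The other Nfkb2 promoters, at chr19:46305445-46305744 and chr19:46305680-46305979, overlap and share 1 site at chr19:46305705-46305714, and the first of them has a further site at chr19:46305459-46305468. The Nfkbia site lies 29 to 20 bases before the start, and the Nfkbie site 106 to 97 bases before it. In the Tnfaip3 promoter shown the sites lie 125 to 116 and 12 to 3 bases before the start. A match to the letters is a description and does not show that a factor is bound. No promoter of Tnf, Il1b, Birc3 or Icam1 in the table held the consensus in this window. In the mm10 build (GENCODE vM21), the genes on the plus strand were Nfkb2 at chr19:46304320-46312385, Nfkbie at chr17:45555703-45563169 and Icam1 at chr9:21015985-21028817. Those on the minus strand were Tnf at chr17:35199381-35202007, Il1b at chr2:129364570-129371139, Nfkb1 at chr3:135584655-135691547, Relb at chr7:19606217-19629438, Nfkbia at chr12:55489410-55492647, Tnfaip3 at chr10:19000910-19015657 and Birc3 at chr9:7848699-7873186.

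The first question was how the pathway differs between old and young kidney. Of the 9 genes that passed the filter on low counts, 6 were called higher in old kidney, with a fold above 2 and an adjusted p below 0.05 in edgeR's quasi-likelihood test, against 5.68% of all 14495 genes tested. None of the 9 was lower, against 0.407% of all genes. Without old kidney replicate 2, 4 of the 9 were called higher, against 5.9% of all genes, and none lower, against 2.32%. The 6 were Il1b, Nfkb2, Relb, Nfkbie, Birc3 and Icam1, and in each the 4 old kidneys lay above the 4 young ones, as did 13.5% of all genes. The median log2 fold change of the 9 genes was 1.09, against 0.02 for all genes. Nfkb1, Nfkbia and Tnfaip3 did not pass the test. Immune cell markers differed between the same libraries. The macrophage markers summed to 156 to 180 CPM in young and 703 to 1666 CPM in old kidneys, with 10 of 10 tested markers called higher. The T cell markers summed to 5.44 to 8.63 and 23.8 to 40.9 CPM, and the B and plasma cell markers to 5.83 to 11.1 and 392 to 579 CPM. The neutrophil markers summed to at most 2.39 CPM and to 6.79 to 31.3 CPM, with 3 of the 8 past the filter, while none of 8 endothelial and none of 8 tubule markers was called. The fibroblast markers summed to 380 to 464 CPM in young and 354 to 874 CPM in old kidneys, with 2 of 8 called higher. Old replicates 2 and 4 were the highest for the macrophage (1029 and 1666 CPM), T cell (33.1 and 40.9 CPM) and fibroblast markers (746 and 874 CPM), and among the old kidneys also for the endothelial markers (558 and 542 CPM) and immediate early genes (240 and 297 CPM). They were the lowest for the tubule markers (23333 and 25003 CPM, against 30956 and 31373 CPM in replicates 3 and 1). The part of these cells in the pathway genes' difference was not tested.

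**Figure D1:**
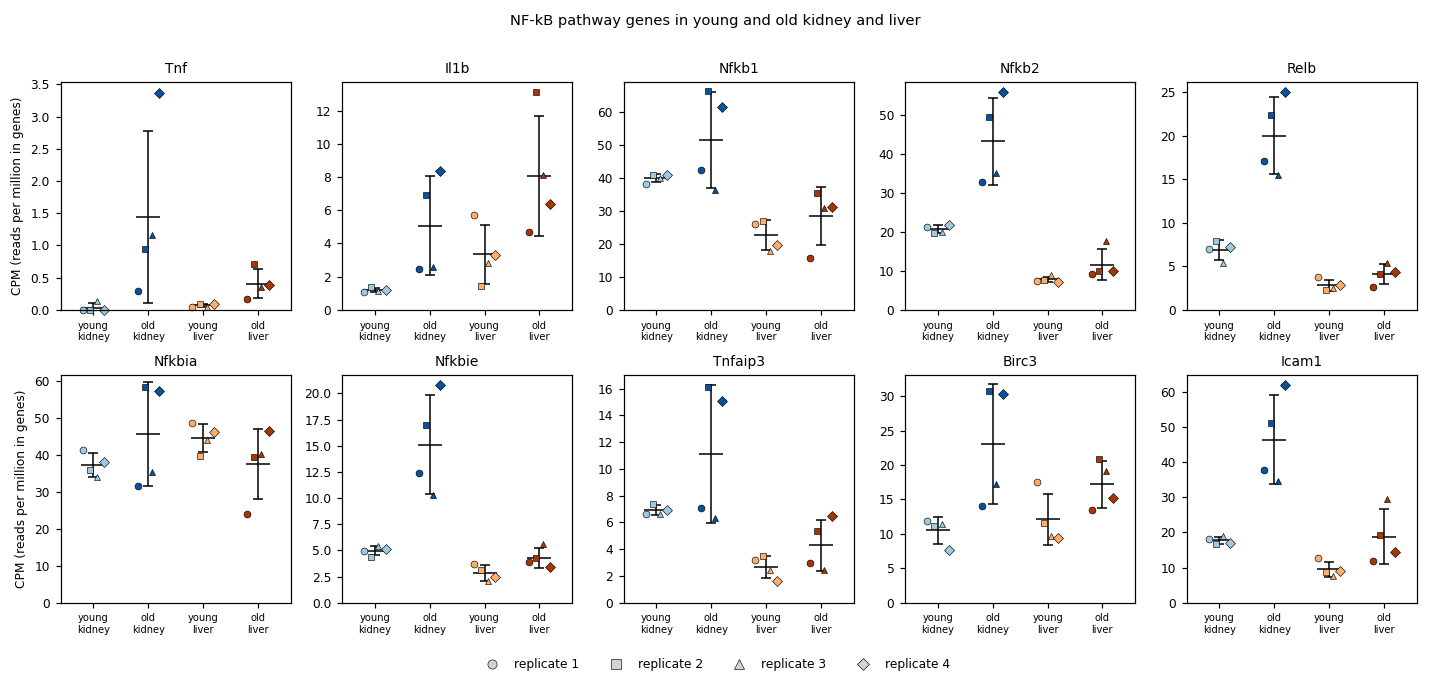
Level in CPM (y axis, linear from 0) of each of the 10 genes in young and old kidney and liver. Each point is 1 library with its replicate number as the symbol, and bars are the mean and SD of 4 libraries. For Nfkb2, Relb, Nfkbie and Icam1 the 4 old kidneys lie above the young ones, and for Nfkb1, Nfkbia and Tnfaip3 the groups overlap, with old replicates 2 and 4 highest.

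Among the cytokines, Il1b was measured at 1.09, 1.37, 1.12 and 1.17 CPM in young kidneys and at 2.46, 6.90, 2.59 and 8.35 CPM in old kidneys. The groups did not overlap, and old replicates 2 and 4 were far above 1 and 3. The log2 fold change was 2.03 (SE 0.40), a 4.08-fold difference, with an adjusted p of 0.011. Tnf, the cytokine that activates the pathway through its own receptors, was close to the limit of detection in young kidney. It had 2 reads in all in the 4 young kidneys and 202 in the old ones, and its levels in old kidney were 0.295, 0.951, 1.16 and 3.36 CPM. Every old kidney was above every young one, with a ratio of 66 and a 95% counting interval of 18 to 549 that covers counting error only. This ratio pools the reads of each group, and old replicate 4, the highest, is also the deepest library (43.7 M reads) and so weighs most. The means of the library levels were 0.0351 CPM in young and 1.44 CPM in old kidneys. Tnf failed the filter on low counts and so had no test, and without a filter it was called as a 7th gene.

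Of the subunits, Nfkb2 and Relb were called and Nfkb1 was not. Nfkb1, the p50 precursor, stood at 38.0, 40.8, 40.0 and 40.8 CPM in young and 42.3, 66.3, 36.2 and 61.3 CPM in old kidneys. Old replicates 1, 2 and 4 were above all young kidneys and replicate 3 was below them, and the log2 fold change of 0.32 (SE 0.16) had an adjusted p of 0.196. Without old kidney replicate 2, it was 0.21. Nfkb2, the p100 precursor, stood at 21.3, 19.7, 20.0 and 21.8 CPM in young and 32.7, 49.4, 35.0 and 55.9 CPM in old kidneys. All old kidneys were above the young ones, by a log2 fold change of 1.02 (SE 0.15, adjusted p = 0.00321). Its fold of 2.03 was close to the threshold of 2, and the log2 fold change fell below 1 without old kidney replicate 2 (0.98) or 4 (0.90) or young kidney replicate 2 (0.98) or 3 (0.99). Antisense genes cover 18.1% of the exon bases of Nfkb2 (11.7% for Icam1), and counting without strand does not separate their reads. Relb is the partner of p52. Its levels were 6.99, 7.95, 5.34 and 7.27 CPM in young and 17.1, 22.4, 15.5 and 25.0 CPM in old kidneys. The lowest old kidney, at 15.5 CPM, stood above the highest young one, at 7.95 CPM, and the log2 fold change was 1.49 (SE 0.18, adjusted p = 0.00118).

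Of the inhibitors, Nfkbie was called and Nfkbia was not. Nfkbia, the inhibitor that NF-kB induces fastest, was at 41.3, 35.8, 33.9 and 38.0 CPM in young and 31.6, 58.2, 35.4 and 57.2 CPM in old kidneys. The groups overlapped, with old replicates 2 and 4 above and replicates 1 and 3 within or below the young range, and the log2 fold change was 0.25 (SE 0.17, adjusted p = 0.363). Without old kidney replicate 2 or 4, it was 0.14. Nfkbie, which encodes IkB epsilon, was at 4.97, 4.39, 5.41 and 5.09 CPM in young and 12.4, 17.0, 10.3 and 20.8 CPM in old kidneys. Here no old kidney came near the young range, and the log2 fold change was 1.56 (SE 0.21, adjusted p = 0.00188).

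Of the ubiquitin enzymes, Tnfaip3 was at 6.61, 7.40, 6.60 and 6.93 CPM in young and 7.04, 16.1, 6.34 and 15.1 CPM in old kidneys. Old replicates 1 and 3 were at the young level and replicates 2 and 4 were well above it. The log2 fold change of 0.64 (SE 0.28) had an adjusted p of 0.153. Birc3 encodes cIAP2, a ubiquitin ligase that acts at the TNF receptor and holds NIK in check. It was at 11.8, 11.2, 11.4 and 7.66 CPM in young and 14.1, 30.8, 17.2 and 30.4 CPM in old kidneys. The groups did not overlap, and the log2 fold change was 1.09 (SE 0.24, adjusted p = 0.0172). Without old kidney replicate 2 it was 0.96, under the fold threshold, and without replicate 4 it was 0.95 with an adjusted p of 0.0584. The call was also lost without young kidney replicate 2 (adjusted p = 0.0542), 3 (0.0504) or 4 (log2 fold change 0.98).

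Icam1, an adhesion molecule through which leukocytes attach, was at 18.0, 16.8, 19.1 and 16.9 CPM in young kidneys. It was at 37.9, 51.0, 34.7 and 62.0 CPM in old kidneys, each above every young one. The log2 fold change was 1.35 (SE 0.16, adjusted p = 0.00114). Without old kidney replicate 2, Il1b, Relb, Nfkbie and Icam1 were still called, at log2 fold changes of 1.88, 1.46, 1.53 and 1.33.

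The wider pathway in kidney was read through 94 further genes in 6 lists, to be read against the 5.68% of all genes called higher. Of the response targets, 12 of 24 tested were higher in old kidney and none was lower, although Selp, Bcl2a1d and Saa3 (15 to 36 reads in all in young kidneys) passed the filter through the old kidneys. Those with the smallest p were Bcl2a1b, a survival factor of myeloid cells (3.02, SE 0.31), Lcn2, a secreted marker of tubule injury (4.79, SE 0.55), the chemokine Ccl5 (2.61, SE 0.37) and Cd83, a protein of activated immune cells (1.86, SE 0.27). Bcl2a1b has near-identical copies, so reads may be split among them. Of the ligands, 3 of 5 were higher, namely Ltb, which signals through the lymphotoxin beta receptor to NIK (3.05, SE 0.37), Tnfsf13b, which encodes BAFF (2.33, SE 0.41), and Tnfsf14, which passed the filter through the old kidneys (12 reads in all in young and 139 in old kidneys). Of the receptors and adaptors, 7 of 24 were higher, among them the lipopolysaccharide co-receptor Cd14 (1.71, SE 0.23), the adaptor Traf1 (1.80, SE 0.26), the TNF receptor Tnfrsf1b (1.97, SE 0.35) and the BAFF receptor Tnfrsf13c, which also passed through the old kidneys (13 and 332 reads). Of the other subunits and inhibitors, 2 of 8 were higher, Bcl3 (1.69, SE 0.22) and Nfkbid, both nuclear proteins of the IkB family. Nfkbid, too, passed the filter through the old kidneys (29 reads in all in young and 283 in old kidneys). Of the remaining ubiquitin editors and brakes, 1 of 12 was higher, the RNase Zc3h12a (1.46, SE 0.29). None of the 10 kinases was called in either direction, and their median was -0.27. The kinase genes nearest to a call were Map3k14, which encodes NIK and stood at 0.98 (adjusted p = 0.00202), and Chuk, which encodes IKK alpha and stood at -0.69 (adjusted p = 0.0239), and both were named after their values were seen. The immediate early genes, which can respond to tissue handling, were called higher in 3 of 9 cases and summed to 148 to 184 CPM in young and 203 to 297 CPM in old kidneys.

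The same question was asked in liver. None of the 9 genes tested was called higher with edgeR, against 1.69% of all 12537 genes, and none lower, against 0.439%. DESeq2 called none either, and 2 of the 9 genes, Il1b and Icam1, had an unadjusted p under 0.05, as did 14.7% of all genes. The point estimate was above 0 for 8 of the 9 genes, with a median log2 fold change of 0.51 against 0.00 for all genes. Il1b was at 5.71, 1.45, 2.85 and 3.33 CPM in young and 4.72, 13.1, 8.13 and 6.35 CPM in old livers. Only young replicate 1 reached into the old range, and the log2 fold change of 1.17 (95% CI 0.31 to 2.03) had an adjusted p of 0.166. Icam1 was at 12.6, 8.69, 7.73 and 9.06 CPM in young and 11.9, 19.4, 29.6 and 14.3 CPM in old livers. The groups overlapped through young replicate 1 and old replicate 1, and the log2 fold change was 0.91 (95% CI 0.32 to 1.49, adjusted p = 0.113). With DESeq2 the adjusted p was 0.0371, at a log2 fold change of 0.89, under the fold threshold.

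Nfkb2 was at 7.48, 7.72, 8.84 and 7.16 CPM in young and 9.10, 9.93, 17.6 and 10 CPM in old livers. The groups did not overlap, as in 9.18% of all genes, and old replicate 3 was far above the others. Its log2 fold change of 0.51 (95% CI -0.01 to 1.04) had an adjusted p of 0.356, and it was 0.26 without old liver replicate 3. Nfkbia was the 1 gene with a negative estimate, -0.35 (95% CI -0.73 to 0.04, adjusted p = 0.404). Its levels were 39.7 to 48.6 CPM in young and 24.1 to 46.3 CPM in old livers, with old replicate 1 the lowest. The estimates of Relb (0.45), Nfkbie (0.55), Tnfaip3 (0.61), Birc3 (0.45) and Nfkb1 (0.24) had adjusted p values of 0.340 to 0.688 and overlapping groups. Relb was at 0.30 without old liver replicate 3, Tnfaip3 at 0.39 without old liver replicate 4, and Nfkb1 at 0.15 to 0.38 with 1 library left out. Tnf had 6 reads in all in young and 39 in old livers, with every old liver above every young one, a ratio of 6.13 and a counting interval of 2.58 to 17.7. It failed the filter and was not tested.

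Other pathway genes did pass the test in liver, where 1.69% of all genes were called higher and 0.439% lower. The response targets Cxcl1 (4.91, SE 0.81), Lcn2 (6.37, SE 1.19) and Bcl2a1b (1.33, SE 0.31) were higher among 21 tested. Of 24 receptors and adaptors, Irak3, a brake on Toll-like receptor signalling (2.32, SE 0.37), and Tlr2 (1.52, SE 0.26) were higher and Il1rap, a subunit of the IL-1 receptor, was lower (-1.14, SE 0.26). Nfkbiz, an inducible nuclear IkB protein, was the 1 of 7 other subunits and inhibitors that was higher (1.77, SE 0.36). None of 4 ligands, 10 kinases or 12 ubiquitin editors was called. The macrophage markers summed to 677 to 947 CPM in young and 1130 to 2082 CPM in old livers (4 of 12 called higher), and the neutrophil markers to 2.68 to 4.87 and 14.4 to 148 CPM. The B and plasma cell markers summed to 4.11 to 4.96 and 19.4 to 89.1 CPM and the T cell markers to 2.85 to 4.76 and 5.6 to 7.96 CPM. The hepatocyte markers were at 145923 to 180642 CPM in young and 96875 to 137906 CPM in old livers, with none of 8 called. Old replicate 3, the highest for Nfkb2 and Icam1, was also the highest for the macrophage, neutrophil and B and plasma cell markers and the lowest for the hepatocyte markers. Young replicate 1 had immediate early genes at 266 CPM, against 102 to 130 CPM in the other young livers. Old replicate 1 was the lowest old liver for endothelial markers (87.2 CPM, against 193 to 204 CPM) and immediate early genes (106 CPM, against 183 to 212 CPM). The part of these cells and of the immediate early response in these values was not tested.

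Over the 16 untreated libraries, an interaction term tested if the age effect differed by tissue. None of the 10 genes was called with edgeR, against 1.72% of all 15036 genes, and 3 had an unadjusted p under 0.05, as did 14% of all genes. These were Relb, with a liver effect below the kidney effect by a log2 difference of -0.99 (SE 0.29, adjusted p = 0.107), Nfkbie, at -0.96 (SE 0.32, adjusted p = 0.155), and Nfkbia, at -0.54 (SE 0.23, adjusted p = 0.298). DESeq2 called Relb, at -1.03 with an adjusted p of 0.0178. Among the other pathway genes 1 was called, the interferon-inducible chemokine Cxcl10, at -1.98 (SE 0.41, adjusted p = 0.0209). The counts of 6 genes called in kidney and none in liver therefore do not show a difference between the tissues for single genes. Relb was the exception with DESeq2 and, at -1.20 (adjusted p = 0.0317), with the share of reads in no gene as a covariate.

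**Figure D2:**
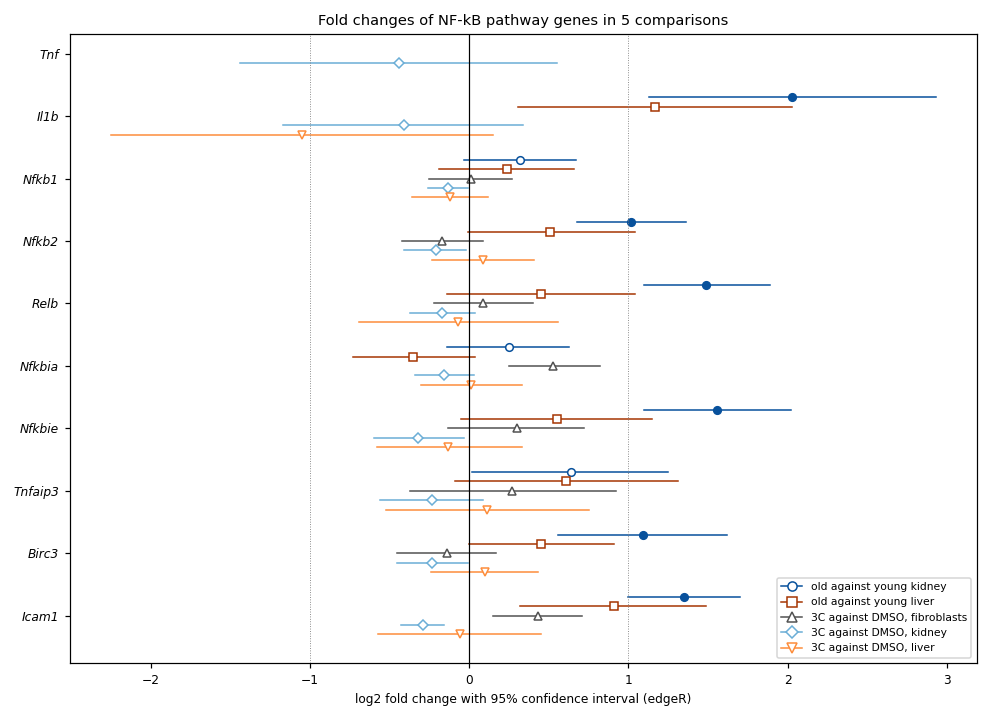
Log2 fold change (x axis) of each gene in 5 comparisons from edgeR, with lines for the 95% confidence interval and filled symbols for genes past both thresholds of a call. Filled symbols appear only in old against young kidney (Il1b, Nfkb2, Relb, Nfkbie, Birc3 and Icam1), and genes without a symbol failed the filter on low counts.

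In old kidney Nfkb2 and Nfkbie differed from a close relative, and Birc3 from Tnfaip3, which is not a relative but also a ubiquitin enzyme. The counts of these 3 pairs were set against each other within each library, a step chosen after the values were seen. Such a ratio does not depend on the scaling of the library. The ratio of Nfkb2 to Nfkb1 was 0.560, 0.483, 0.501 and 0.535 in young and 0.773, 0.745, 0.967 and 0.913 in old kidneys. All old kidneys were above the young ones, by 0.70 on the log2 scale (SD 0.15). The ratio of Nfkbie to Nfkbia was 0.12, 0.123, 0.16 and 0.134 in young and 0.391, 0.293, 0.290 and 0.363 in old kidneys, a log2 difference of 1.31 (SD 0.20). Old replicates 1 and 3, whose Nfkbia level was within or below the young range, were above all young kidneys in this ratio. The ratio of Birc3 to Tnfaip3 was 1.10 to 1.79 in young and 1.91 to 2.70 in old kidneys, a log2 difference of 0.50 (SD 0.28). Each of the 3 kidney ratios gave a two-sided exact permutation p of 0.0286, the smallest that 4 libraries against 4 allow, and 0.103 after Benjamini-Hochberg adjustment over all 18 ratio tests. The adjustment does not cover the choice of pairs from these same kidneys, so these p values do not test the kidney differences. In liver the mean Nfkbie to Nfkbia ratio was 0.0637 ± 0.0163 in young and 0.121 ± 0.0377 in old libraries (SD, n = 4 each), with overlapping groups and an exact permutation p of 0.0857 (adjusted 0.2). The other liver ratios differed by 0.25 and -0.09 on the log2 scale, with exact permutation p values of 0.514 and 0.857, and leaving out 1 library moved them over 0.09 to 0.43 and -0.38 to 0.2. With 3C in fibroblasts the Nfkb2 to Nfkb1 ratio was lower by -0.18 on the log2 scale (SD 0.03) and the Nfkbie to Nfkbia ratio by -0.25 (SD 0.07), without overlap, and each had an exact permutation p of 0.1, the smallest that 3 libraries against 3 allow (adjusted 0.2). The Birc3 to Tnfaip3 ratio in fibroblasts and all 3 ratios with 3C in kidney and liver had overlapping groups.

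**Figure D3:**
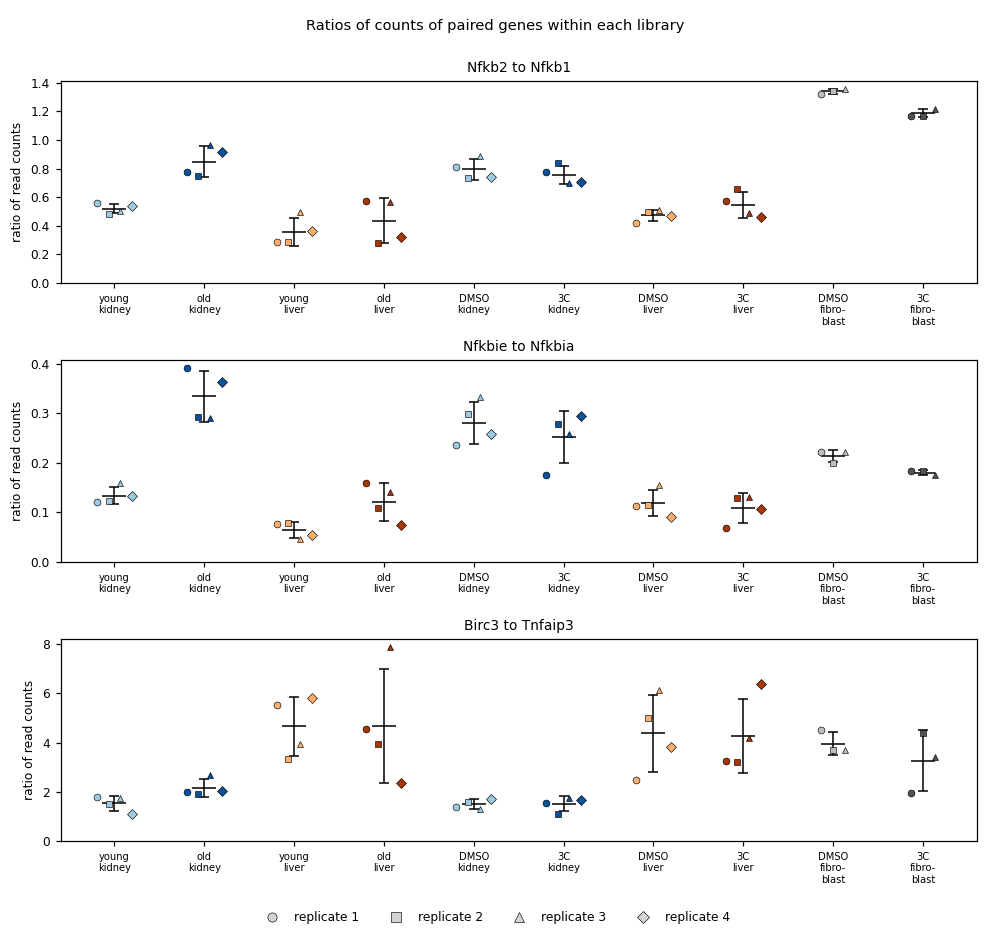
Ratio of read counts of 2 genes within a library (y axis, linear from 0) in the 10 RNA-seq groups. Points are libraries with the replicate number as the symbol, and bars are the mean and SD. In the upper and middle panels the old kidneys lie above the young kidneys without overlap (lowest old Nfkbie to Nfkbia ratio 0.29, highest young 0.16).

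The next comparison was 3C against DMSO in skin fibroblasts. None of the 8 genes tested was called higher, against 1.23% of all 13449 genes, and none lower, against 0.632%, while 2 had an unadjusted p under 0.05, against 20.2% of all genes, and DESeq2 called none. Those 2 were Nfkbia and Icam1. Nfkbia was at 18.7, 22.4 and 18.6 CPM with DMSO and at 32.8, 30.0 and 26.8 CPM with 3C. The 3C libraries were all above the DMSO libraries, as in 15.9% of all genes, and the log2 fold change of 0.53 (SE 0.13) had an adjusted p of 0.0456 with a fold of 1.45, under the threshold. Icam1 was at 52.0, 53.3 and 60.2 CPM with DMSO and at 91.7, 70.1 and 70.1 CPM with 3C. It was also higher in 3 of 3 libraries, with a log2 fold change of 0.43 (SE 0.13, adjusted p = 0.0836). With DESeq2 the adjusted p was 0.0128 for Nfkbia and 0.0491 for Icam1, and both were under the fold threshold.

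Nfkbie was at 4.10 to 4.47 CPM with DMSO and 4.69 to 5.99 CPM with 3C, without overlap and with a log2 fold change of 0.30 (95% CI -0.13 to 0.72, adjusted p = 0.429). The subunits Nfkb1 (0.01), Nfkb2 (-0.17) and Relb (0.09) and the enzymes Tnfaip3 (0.27) and Birc3 (-0.14) had overlapping groups, with adjusted p values from 0.456 to 0.965. The widest of their 95% confidence intervals was that of Tnfaip3, -0.37 to 0.92. Both cytokines were at the limit of detection: Il1b had no read with DMSO and 3 in one 3C library, and Tnf had 17 and 12 reads. Among the 19 response targets tested 4 were lower with 3C, against 0.632% of all genes, and none was higher, against 1.23%. These were Cxcl2, a chemokine for neutrophils (91 reads in all with DMSO and 8 with 3C, so that it passed the filter through the DMSO libraries and had to be lower), Ptgs2, which makes prostaglandins (-1.64, SE 0.32), the acute phase gene Saa3 (-1.48, SE 0.29) and the lipoprotein receptor Olr1 (-1.14, SE 0.13). None of the ligands, receptors, kinases, other subunits or ubiquitin editors was called in either direction. The macrophage markers summed to 292 to 374 CPM with DMSO and 119 to 180 CPM with 3C, with 1 of 9 called lower, while the fibroblast markers overlapped at 17434 to 23824 and 18374 to 23929 CPM. Their part in the targets' difference was not tested.

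In kidney of the 20 to 21 month old mice, no gene at all was called with 3C by edgeR, either higher (0% of 14974 genes) or lower (0%), and DESeq2 called 5, none of them among the 10 genes. All 10 pathway genes were tested here and all had a negative log2 fold change, with a median of -0.23 against 0.00 for all genes, and 5 of 10 had an unadjusted p under 0.05, against 11.9% of all genes. Icam1 was at 55.1, 54.7, 54.4 and 54.7 CPM with DMSO and at 38.5, 46.8, 44.0 and 45.5 CPM with 3C. It was the 1 pathway gene whose groups did not overlap, as in 7.07% of all genes, and its log2 fold change of -0.29 (SE 0.06) had an adjusted p of 0.175 with edgeR and 0.0147 with DESeq2, under the fold threshold in both. It was -0.28 without DMSO kidney replicate 1 and -0.30 without replicate 3, where Nfkb2 stood at -0.13 and Nfkbie at -0.26. The others with an unadjusted p under 0.05 were Nfkb1 (-0.13), Nfkb2 (-0.21), Nfkbie (-0.32) and Birc3 (-0.23), with adjusted p values of 0.369 to 0.392. Without 3C kidney replicate 1, Nfkbie was at -0.21, Il1b at -0.17 and Tnf at -0.26. Nfkbie was at 14.0 to 18.3 CPM with DMSO and 9.70 to 15.1 CPM with 3C, and 3C replicate 1 was the lowest library for Tnf, Il1b, Nfkb1, Relb, Nfkbie, Birc3 and Icam1. Tnf was at 0.758 to 2.10 CPM with DMSO and at 0.571, 2.11, 0.736 and 0.649 CPM with 3C, where replicate 2 was just above the DMSO range and the other 3 were below it. Its log2 fold change was -0.44, and it was -1.07 without 3C replicate 2 and -0.19 without DMSO replicate 4. The macrophage markers were at 636 to 730 CPM with DMSO and 380 to 624 CPM with 3C, and the fibroblast markers at 583 to 749 and 294 to 506 CPM, with none called. 3C replicate 1 was also the lowest 3C kidney for the macrophage (380 CPM), fibroblast (294 CPM) and endothelial markers (390 CPM, against 523 to 593 CPM in the other 3). Their part in the shift was not tested.

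In liver of the same mice no gene was called higher (0% of 13042 genes) or lower (0%) by edgeR, and DESeq2 called 2 genes, neither of them among the 10 genes followed here. None of the 9 pathway genes tested had an unadjusted p under 0.05. The widest interval was that of Il1b, at 11.3, 1.83, 2.55 and 3.06 CPM with DMSO and 2.12, 1.62, 1.06 and 3.84 CPM with 3C. Replicate 1 with DMSO was far above the rest, and the log2 fold change was -1.05 (95% CI -2.25 to 0.15) with all libraries and -0.22 without that one. Without 3C liver replicate 4 it was -1.49, and no pathway gene was called. DMSO replicate 1 also had the highest macrophage marker sum, 1003 CPM against 377 to 626 CPM in the other DMSO livers and 277 to 632 CPM with 3C. The T cell markers summed to 6.42 to 10.6 CPM with DMSO and 3.84 to 5.24 CPM with 3C, without overlap. Their part in these values was not tested. The other 8 estimates lay between -0.13 and 0.11 with overlapping groups. Their 95% confidence intervals reached at most from -0.69 to 0.75. The 3C effect was not called as different between kidney and liver for any gene with edgeR (0% of 15526 genes) or DESeq2, and none of the 10 genes had an unadjusted p under 0.05 in that interaction.

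**Figure D4:**
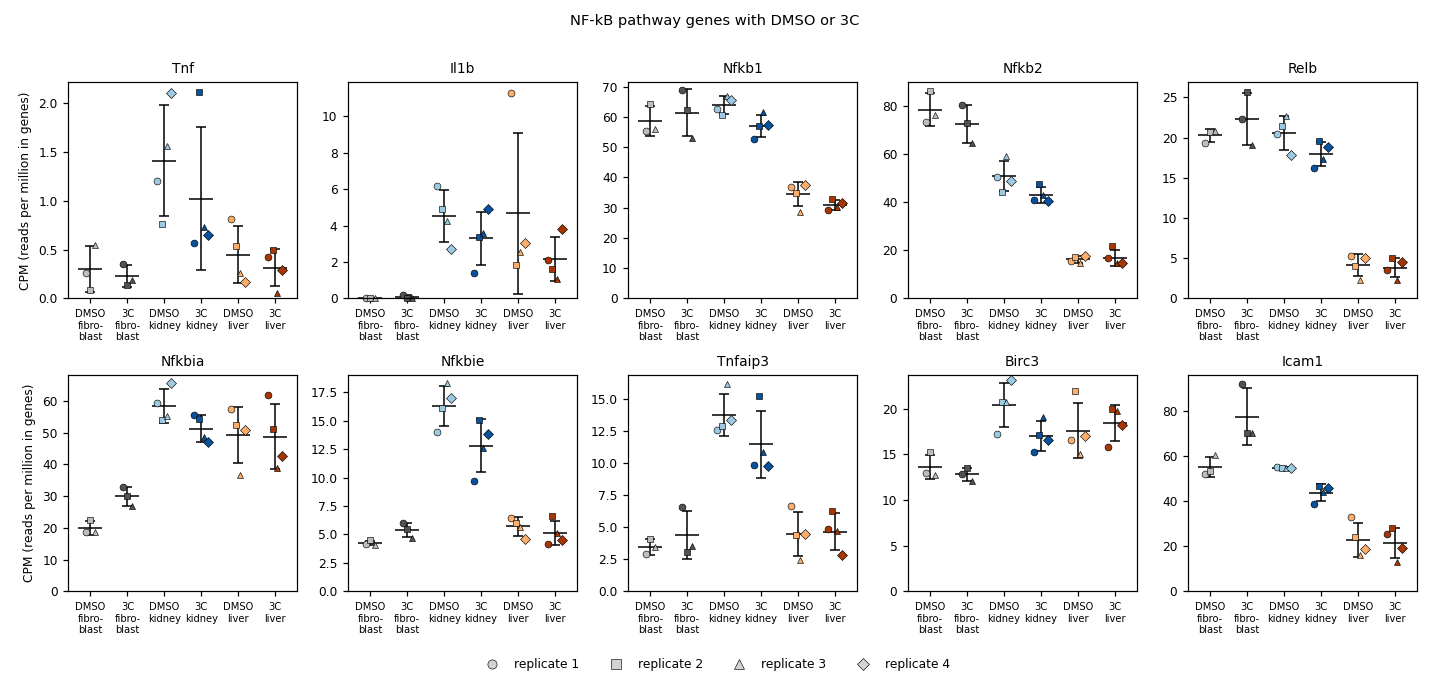
Level in CPM (y axis, linear from 0) of each of the 10 genes in fibroblasts, kidney and liver with DMSO or 3C. Points are libraries with the replicate number as the symbol, and bars are the mean and SD of 3 or 4 libraries. Nfkbia and Icam1 lie higher with 3C in fibroblasts, and Icam1 lies lower with 3C in kidney (at most 46.8 CPM, against 54.4 CPM or more with DMSO).

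Kidney and liver of young mice were compared to see where the pathway is expressed before old age. This comparison rests on the scaling, because 20 genes take 25.9 to 31.2% of the counts in young liver and 11.4 to 13.7% in young kidney. With size factors, 3 of 9 pathway genes were lower in kidney, against 16.9% of all 14057 genes, and none was higher, against 25.7%. They were Il1b (log2 fold change -2.56, SE 0.40), Nfkbia (-1.35, SE 0.14) and Birc3 (-1.27, SE 0.21). With library totals alone, the median of all genes moved from 0.08 to 1.16 and the share of called genes that were higher in kidney from 60.4 to 86.3%. On that scale Il1b was still called lower (-1.48), Nfkbia (-0.26) and Birc3 (-0.20) were not called, and Nfkb2 (1.41), Relb (1.28) and Tnfaip3 (1.36) were called higher, 3 of 9 against 55.5% of all genes (8.82% were called lower). Of the genes called under either scaling, only Il1b was called under both, and the estimates of Nfkb1 (0.82), Nfkbie (0.80) and Icam1 (0.89) changed sign with library totals. With the share of reads in no gene as a covariate, which was 13.42 to 14.65% in young kidney and 6.84 to 9.31% in young liver, none of the 9 was called. That share does not overlap between the tissues, so the fit cannot tell it apart from tissue, and nothing is read from the loss. Il1b was at 1.09 to 1.37 CPM in young kidney and 1.45 to 5.71 CPM in young liver, and the macrophage markers, at 156 to 180 and 677 to 947 CPM, differed in the same direction. The within-library ratio of Nfkbie to Nfkbia was higher in kidney than in liver, by 1.10 on the log2 scale (SD 0.30), and that of Birc3 to Tnfaip3 was lower, by -1.59 (SD 0.35), without overlap in either case. The labels do not pair these libraries, which were treated as pairs by number because the deviations of same-numbered libraries correlated. On that reading the exact paired test gave 0.125 for both ratios, the smallest p that 4 pairs allow. The main fit did not use the pairs, and with the replicate number as a block 3 of the 9 genes were still called.

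Levels over all 10 RNA-seq groups are given as a description, because the series were handled differently. They are CPM from library totals, and with size factors the order of kidney and liver can differ. Per kb of RefSeq exon length, Nfkbia was the most abundant of the 10 in young kidney, at 23.6 CPM per kb, followed by Nfkb1 (9.68), Icam1 (6.87), Nfkb2 (6.29), Birc3 (3.74), Relb (3.13), Nfkbie (2.04), Tnfaip3 (1.5), Il1b (0.883) and Tnf (0.0212). In DMSO fibroblasts the order opened with Nfkb2 (23.9 CPM per kb), Icam1 (21.4) and Nfkb1 (14.2), with Nfkbia at 12.6. Nfkb2 was highest in DMSO fibroblasts (78.6 ± 6.78 CPM, SD, n = 3) and lowest in young liver (7.80 ± 0.729 CPM, n = 4). Going down the group means, neighbours did not overlap at 3 steps: from fibroblasts to the DMSO, old and 3C kidneys, from these to young kidney and the older livers, and from those to young liver. Icam1 was highest in 3C fibroblasts (77.3 ± 12.5 CPM, n = 3) and also lowest in young liver (9.52 ± 2.13 CPM, n = 4). Its neighbours did not overlap between 3C and DMSO fibroblasts, between 3C kidney and DMSO liver, and between young kidney and young liver.

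Relb had group means of 18.0 to 22.3 CPM in fibroblasts and in DMSO, old and 3C kidneys, which did not overlap young kidney (6.89 ± 1.11 CPM), and means of 2.85 to 4.15 CPM in the livers. Nfkbie was highest in DMSO kidney (16.3 ± 1.78 CPM), with old and 3C kidneys next to it, and these did not overlap the remaining groups. Nfkbia ran the other way, with both fibroblast groups lowest, at 29.9 ± 2.96 CPM with 3C and 19.9 ± 2.19 CPM with DMSO, and no step without overlap among the 8 kidney and liver groups. On this scale the group means of Nfkb1 and Tnfaip3 were higher in every kidney group than in every liver group (for Nfkb1, young kidney against young liver was -0.26 on the log2 scale with size factors), and neighbours did not overlap at 1 step, from young kidney to the next liver group. This step holds for neighbours only: old kidney replicate 3 (36.2 and 6.34 CPM) was below the highest DMSO liver (37.5 and 6.65 CPM). On this scale 70% of all genes lay above young liver in young kidney without overlap. Young liver was lowest for both genes (22.6 ± 4.57 and 2.68 ± 0.822 CPM). Il1b had its 1 step between tissues and fibroblasts, where at most 3 reads were seen. Tnf was lowest in young kidney and young liver, with means of 0.0351 and 0.0679 CPM, and Birc3 was highest in old kidney (23.1 ± 8.75 CPM) and lowest in young kidney (10.5 ± 1.93 CPM).

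Among 15594 genes with at least 1 CPM in a group, the genes whose log2 group means followed each pathway gene most closely were named by Pearson's r over the 10 groups, which share tissue, depth and handling. For Il1b, Cybb (r = 0.997), a subunit of the phagocyte oxidase, is given. For Nfkbie they were Lyl1 (0.986) and Bcl11a (0.981), transcription factors of blood cells. For Relb they were Plekho1 (0.993) and Ch25h (0.991), for Tnf Cd28 (0.975), a T cell co-receptor, and Sntg1 (0.960), and for Birc3 Syk (0.939), a kinase of immune receptors, and again Sntg1 (0.935). For Nfkb1 they were Pitpnm1 and 2310033P09Rik (0.994 each), for Nfkb2 Cbarp and Ctdnep1 (0.994 each), for Tnfaip3 Cracr2b (0.987) and Scube1 (0.985), for Icam1 Zdhhc14 (0.984) and Ppp1r35 (0.977), and for Nfkbia Gm12216 (0.951) and Retreg3 (0.95).

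Chromatin at the start sites was read from the ATAC-seq peaks of each library, as the highest peak within 1000 bp of a coding start. With 3 libraries a group an exact test cannot go below 0.1, so the peaks are described only. In every library of a group, 9 of 10 genes had a peak in young kidney, 9 in old kidney, 8 in young liver and 10 in old liver. Of all genes with at least 1 CPM over the untreated libraries of the tissue, 91.1, 90.2, 90.8 and 91% had one. The gene that changed most in this respect was Il1b. Its promoter had no peak in the 3 young livers and a peak in all 3 old livers, with a fold enrichment over background of 2.57, 2.69 and 2.10. In kidney it had a peak in 1 old library (2.58) and in none of the 3 young ones. These are weak peaks, with -log10 q values of 0.7 to 2.5 in old liver, and no longer counted at a -log10 q of at least 5. Tnf had a peak in every library but 1 young liver, with fold enrichments of 2.21 to 3.96.

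The other 8 genes had a peak in all 12 libraries, and at each the fold enrichments of old and young libraries overlapped in both tissues. Relb stood at 8.53, 7.79 and 8.63 in young and 8.12, 7.78 and 10.25 in old kidney, and at 5.60, 4.74 and 5.29 in young and 7.09, 5.36 and 5.44 in old liver. At this promoter the lowest kidney, at 7.78, was above the highest liver, at 7.09. At the others of these 8 genes kidney and liver overlapped, as at Nfkb2 (lowest kidney 5.74, highest liver 5.90). The share of all promoters with such a gap was not counted. Nfkbie stood at 6.47, 5.47 and 3.11 in young and 4.94, 5.04 and 6.91 in old kidney, and Nfkb2 at 6.31, 5.74 and 6.08 and at 6.55, 5.77 and 7.03. For both, the ranges of young and old kidneys overlapped, while their RNA in kidney differed between the ages. The number of peaks called in a library was 115836 to 128395 in young and 93072 to 108970 in old kidney. It was 123776 to 130409 in young and 112125 to 136849 in old liver.

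**Figure D5:**
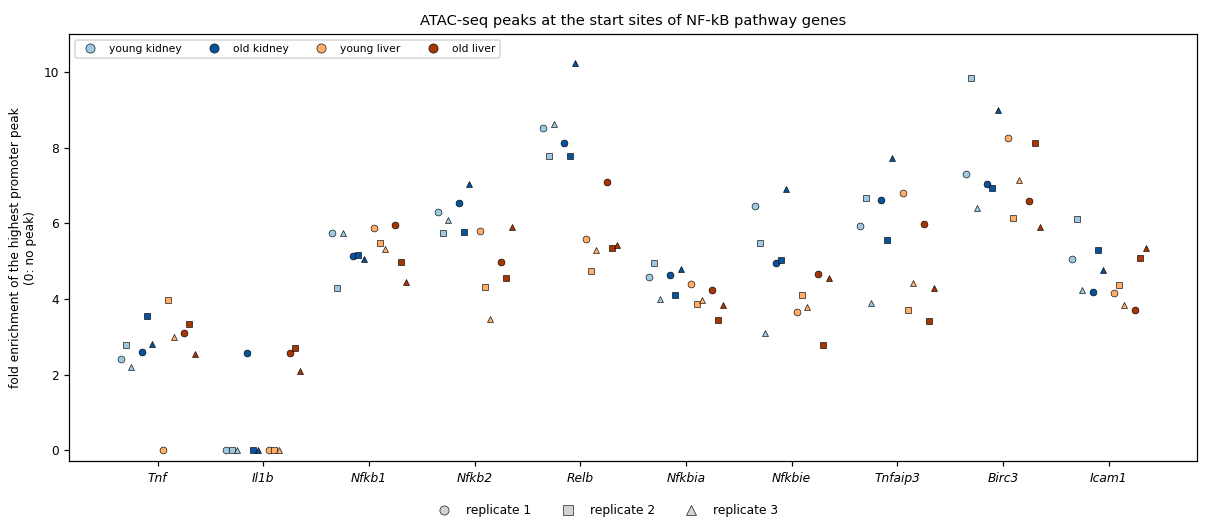
Fold enrichment of the highest ATAC-seq peak within 1000 bp of a start site (y axis, linear, 0 where no peak was called) for each gene. Each point is 1 of 12 libraries, coloured by tissue and age with the replicate number as the symbol. Il1b has points above 0 in all 3 old livers (2.10 to 2.69) and in 1 old kidney only, and for the other genes young and old points overlap apart from the missing Tnf peak in 1 young liver.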

How the data were processed

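Per the labels, RNA-seq covered 38 libraries in 10 groups and ATAC-seq 12 libraries in 4 groups, and groups were taken from the labels alone. The authors trimmed reads with Trimmomatic 0.39, aligned RNA reads to mm10 with HISAT2 2.2.1 and deposited read counts per gene from HTSeq 0.12.4, without use of strand. The reference was taken from the UCSC Table Browser, and the gene models are not named further in the sources used here. For ATAC-seq, reads were aligned with Bowtie2 2.3.5.1, and the authors called MACS2 peaks per library and deposited each peak's fold enrichment and its −log10 p and −log10 q. Peaks were compared only as present or absent and by height within 1000 bp of a start site. Counts were used as deposited. Library totals were 14.2 to 43.7 M reads in genes (reads outside genes and ambiguous reads excluded), and intervals on read ratios cover counting error only.

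Each pair of groups was tested with edgeR 4.0.16 (R 4.3.3), by the quasi-likelihood F test with TMM scaling, after filterByExpr with a minimum count of 10. Calls needed a Benjamini-Hochberg adjusted p below 0.05 over all genes tested and a fold above 2 or below 0.5, and interactions needed the adjusted p alone. DESeq2 1.42.0, other scalings and filters, a replicate block, a covariate and leaving out each library were the alternatives. Scripts were tested on simulated counts. Between replicates, 54 pairs of libraries all differed beyond sampling noise (chi-square per degree of freedom of at least 8.12). Where replicate numbers are shared, deviations from the group means of same-numbered libraries correlated at 0.12, 0.26, 0.13 and 0.50 between young kidney and young liver. These were therefore treated as pairs, which the labels do not state. Old kidney and old liver were not examined for pairs. In the 5 other comparisons at least 1 such correlation was below 0, and the numbers were not taken to pair libraries.

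The 10 genes, the 94 further pathway genes and the marker lists were chosen with earlier results of these data known. The rule for naming took the 10 genes throughout, up to 4 called genes per list with the smallest p whose groups did not overlap, and the 2 genes most alike in group means, of which 1 is not reported here. Il1b, Nfkb2 and Icam1 overlap antisense genes over 1.3, 18.1 and 11.7% of their exon bases, and those reads cannot be assigned to a strand. Igkc and Trac were not in the count files. Coding start sites and exon overlaps came from GENCODE vM21 on the same build. The remaining steps used Python 3.11.15, with scipy 1.17.1 for exact tests, pandas 2.3.3 and numpy 2.4.6 for tables, and matplotlib 3.10.9 for plots.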

Additional observations from a re-analysis of the deposited data

Results flagged for a closer look

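In 5 of the 80 gene and group combinations of 4 libraries that could be examined, 1 library stood apart from the other 3 by a gap above Dixon's critical share of the range, and chance alone marks about 1 such group in 20. Tnf in young kidney was at 0.14 CPM in replicate 3 and had no read in the other 3 libraries. With 3C in kidney, Tnf was at 2.11 CPM in replicate 2 and at 0.571 to 0.736 CPM in the others. Il1b in DMSO liver was at 11.3 CPM in replicate 1 and at 1.83 to 3.06 CPM in the others. Nfkb2 in old liver was at 17.6 CPM in replicate 3 and at 9.1 to 10 CPM in the others. Birc3 in young kidney was at 7.66 CPM in replicate 4, below the 11.2 to 11.8 CPM of the others.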

How the results depend on the processing

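In old against young kidney, Il1b, Relb, Nfkbie and Icam1 were called under all 16 alternatives. The count of called genes was 6 of 9 with edgeR, DESeq2, library totals, a filter at 1 CPM, the covariate (share of reads in no gene) and the adjusted p alone. It was 5 with RLE size factors (without Nfkb2), 7 with no filter (with Tnf) and 4 to 7 on leaving out 1 library. Tnf was among the called genes without young kidney replicate 1, 3 or 4 or old kidney replicate 1, where it passed the filter through the old kidneys. Without young kidney replicate 3, Nfkb2 and Birc3 were both lost. Of all genes, 5.68% were called higher with edgeR, 4.37% with no filter, 8.15% with the adjusted p alone, 4.53% with the replicate block and 3.95 to 5.9% on leaving out 1 library. With the replicate block the count was 4, without Nfkb2 (fold just under 2) and Birc3 (adjusted p = 0.0573). The numbers do not pair these libraries (correlations -0.30, 0.25, 0.05 and -0.17), and in no comparison other than young kidney against young liver did every library correlate best with its own number. The block changed no other call, and the tissue count stayed at 3. With the covariate the tissue count was 0, with Il1b at 0.49, Tnfaip3 at -0.68 and Icam1 at 0.22, but that share does not overlap between the tissues and cannot be told apart from tissue. For the same contrast, library totals, chosen after seeing the data, gave Nfkb1 0.82, Nfkbie 0.80 and Icam1 0.89. The age interaction called 1 gene (Relb) with DESeq2 and 1 (Relb) with the covariate. In fibroblasts the adjusted p alone gave 1 gene (Nfkbia), and Nfkb1 was -0.08 with the covariate. In liver with 3C, Nfkbia was -0.02 with library totals. Leaving out 1 library gave ranges across 0 for fibroblast Nfkb1 (-0.05 to 0.09), Relb (-0.03 to 0.18) and Tnfaip3 (-0.10 to 0.48), and in liver with 3C for Nfkb2 (-0.05 to 0.15), Relb (-0.23 to 0.10), Nfkbia (-0.09 to 0.09), Tnfaip3 (-0.06 to 0.32) and Icam1 (-0.22 to 0.12), all uncalled. The cause was not tested. Over all genes, age in liver gave 212 higher and 55 lower calls with edgeR, 483 and 112 with DESeq2 and 91 and 48 with the block, and leaving out 1 library gave 48 (without young replicate 3) to 365 (without old replicate 1) higher calls, so the 1.69% of all genes beside the liver result ranged from 0.376 to 2.87% while no gene of the 10 was called. The age interaction gave 131 and 127 with edgeR, 339 and 406 with DESeq2 and 66 and 106 with library totals, which moved the share above 0 from 50.8 to 38.4%. Leaving out 1 library gave 114 (without young kidney replicate 2) to 456 (without old liver replicate 1) interaction calls of 258, from 0.749 to 2.99% of all genes, and none of the 10 genes was among them. For 3C in fibroblasts the covariate left 80 and 28 of 166 and 85. When a peak needed a -log10 q of 5 or more, 8, 8, 8 and 7 genes had one in every library of young kidney, old kidney, young liver and old liver. Few reads limit Tnf in young tissue and Il1b in fibroblasts.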
